A study of Mus musculus with 2 samples.

Results

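The genes described here encode the conjugation enzymes of the colon: the glutathione S-transferases (GST) of the alpha, mu, pi, theta and omega classes, the microsomal glutathione transferases (MGST), the UDP-glucuronosyltransferases (UGT) of families 1A, 2 and 3A, and the sulfotransferases (SULT). They were chosen by symbol, as every gene of the reference whose name starts with Gsta, Gstm, Gstp, Gstt, Gsto, Mgst, Ugt1a, Ugt2, Ugt3a or Sult and that a gene probe of the array matched through its RefSeq accession. This gave 57 genes with 72 probes, out of 22909 named genes and 56593 gene probes. The reference held 68 such genes, and 11 of them had no matched probe, namely Gsta1, Ugt1a1, Ugt1a2, Ugt1a5, Ugt1a7c, Ugt1a8, Ugt1a9, Ugt2a2 and 3 pseudogenes.

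Whole colon of 8-week-old C57BL/6 mice was profiled on 2 single-colour Agilent arrays of 1 slide. The first array held RNA of Villin-Cre mice, the controls. The second held RNA of Villin-Cre; EP4flox/flox mice (EP4 cKO). Both genotypes carry the Villin-Cre transgene, whose promoter drives Cre recombinase in the intestinal epithelium. The floxed alleles of EP4, the prostaglandin E2 receptor encoded by Ptger4, are carried by the EP4 cKO mice alone, in which the gene is targeted in the epithelium and not in stroma or leukocytes. Per the labels the RNA of an array came from 3 pools of colon that were combined. The spread between mice therefore cannot be seen, and no p-value is given.

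Conjugation makes reactive or poorly soluble compounds easier to excrete. GST enzymes join glutathione to electrophiles and to products of lipid peroxidation, UGT enzymes join glucuronic acid to phenols, steroids, bile acids and bilirubin, and SULT enzymes transfer sulfate from the donor PAPS to phenols, steroids and amines. The gut epithelium expresses many of these enzymes and meets compounds from food and bacteria before the liver does. Several of the genes, those of the alpha class among them, are textbook targets of the oxidant-sensing factor NFE2L2 (NRF2) or of the xenobiotic receptors AHR, PXR and CAR.

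Signals were scaled so that the trimmed mean of each array was 2500, and a gene with several probes was read from the brightest of them. The ratio is that of EP4 cKO over Villin-Cre on the log2 scale, and a change is called when it exceeds 2-fold. Where only 1 array had a signal well above background by the flag of the scanner software, the dim side was held at no less than the floor of its array (125 in the control, 57.8 in EP4 cKO), and the fold is a bound. Of the 72 probes, 46 were well above background on at least 1 array. Of the 57 genes, 33 passed that flag on both arrays, 2 passed it in EP4 cKO alone and 22 passed it on neither. The error given after a ratio comes from the error model of the scanner software. It ran from 0.20 to 0.36 among the 33 genes and covers the spots, not the mice. A second yardstick is the agreement of different probes. For 10 of the genes a pair of probes was measured on both arrays, and the ratios of such a pair differed by 0.01 to 0.35, with a median of 0.07. Over all 3345 genes with such a pair the median difference was 0.20 and the 90th percentile was 0.73. A dim probe of Ugt1a6b, flagged in EP4 cKO alone and given below, is not among these pairs.

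The targeted gene itself was hardly lower on the EP4 cKO array. The brighter probe of Ptger4 gave 6227 for Villin-Cre against 5661 in EP4 cKO colon, a log2 ratio of -0.14, and the dimmer probe gave 393 and 592. Whether these probes lie in the deleted exons was not tested, and stroma and leukocytes keep the gene, so the directions below rest on the labels of the arrays. All 10 epithelial markers looked at, such as Epcam, Cdh1 and keratins, lay within 2-fold, between -0.25 and 0.56. Of 9 markers of surface colonocytes, 3 were more than 2-fold higher in EP4 cKO, namely Krt20 (log2 ratio 1.80), Slc9a3 (3.49) and Aqp8 (473610 against 236302, just past the line). In the same list Guca2a (-0.75) and Car1 (-0.42) were lower and Car4 was at 0.09. All 5 enteroendocrine markers were lower, 3 of them by more than 2-fold, namely Chga (-1.53), Neurod1 (-1.35) and Chgb (-1.22). The ileal gene Fabp6 was higher (1.73), and Hoxb6, a marker of proximal position, had 220 and 442. Of 7 goblet cell markers, Clca1 was more than 2-fold higher (1.31) and Tff3 was at -0.75. In smooth muscle Cnn1 was more than 2-fold lower (-2.73) and Actg2 was at 0.72, and of the markers of enteric neurons and glia Uchl1 was more than 2-fold lower (-1.43) and Elavl4 was at -0.82. Of the pancreatic acinar markers Cela1 was more than 2-fold lower (-1.02), Ctrb1 was at 0.43, and Prss2, Cpa1 and Pnlip did not pass the flag. Of the leukocyte markers Ptprc was at 0.97, Cd4 at 0.18 and Cd3e at -0.10. Of 7 fibroblast markers, the 6 with a value were all more than 2-fold lower, with a summed signal of the list of 13200 in Villin-Cre and 418 in EP4 cKO. Among 6 hepatocyte markers, Fgb and Ahsg did not pass the background flag in either genotype, Alb had signals of 275 and 161, Serpina1a was flagged in EP4 cKO alone, and Ttr (17629 and 12562) and Apoa2 (5388 and 7374) were well above background in both. In whole tissue, fewer cells of a type cannot be told apart from less RNA per cell, and the part of these shifts in the ratios below was not tested.

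The conjugation enzymes did not move as a block. Of the 35 genes with a value, 5 were more than 2-fold higher in EP4 cKO, Gsta2, Gsta3, Gsta4, Gstp3 and Sult2b1, which is 14.3% of them, against 4.86% of all 14669 genes with a value. Only Sult1a1 was more than 2-fold lower, which is 2.86% of them, against 7.87% of all genes. With a threshold of 1.5-fold the order of the shares of lower genes turned, with 9 of the 35 (25.7%) lower against 18.6% of all genes, and 7 (20%) were higher against 9.84%. Of the other genes, 27 lay within 2-fold and 2, Ugt2b35 and Ugt2b37, had only bounds, which did not reach 2-fold. The 33 genes measured in both genotypes held all of these 6, beside 4.03% higher and 6.23% lower among all 12816 genes so measured. Their log2 ratios ran from -1.28 to 3.76 with a median of -0.12, near the -0.15 of all such genes. By sign, 15 of the 33 (45.5%) lay above 0, where 37% of all genes did, and 18 (54.5%) lay below it, where 63% did.

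The share of all genes past 2-fold depended on the scaling, while the counts of 5 and 1 among the conjugation enzymes were the same under 4 other scalings and changed with the E1A scaling given last. With scaling to the 75th percentile 6.39% of all genes were higher and 6.18% lower, and with a trimmed mean over all spots 6.14% and 6.43%. Loess gave 7.73% and 4.90%, and normexp with quantile normalization 4.11% and 2.67%. With scaling to the E1A spike-in control spots, added after seeing the data, 39.1% were higher and 2.26% lower, and the counts among the conjugation enzymes became 16 and 0.

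**Figure D1:**
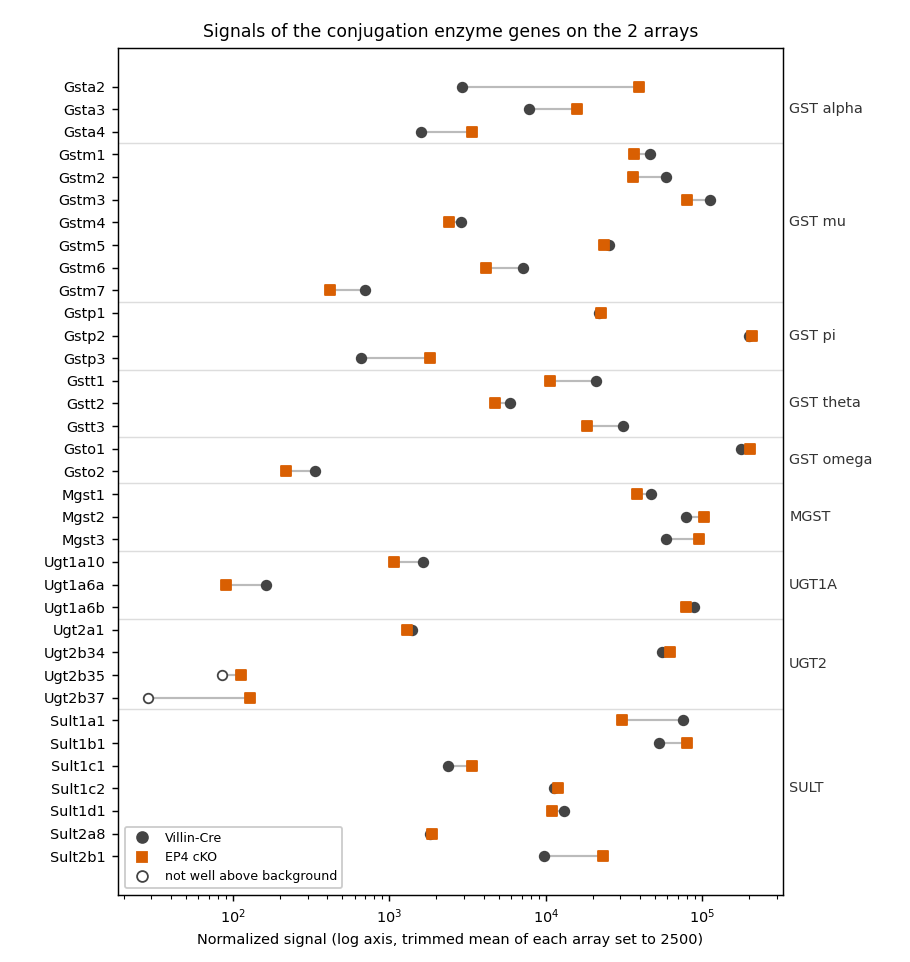
Normalized signal (log axis) of the 35 conjugation enzyme genes with a value, with Villin-Cre as dark circles and EP4 cKO as orange squares, 1 array each; open symbols are signals not well above background. The widest gap between well measured signals is that of Gsta2, from 2892 to 39299, and signals of different genes come from different probes and are not comparable with each other.

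Classes differed more than the whole. The alpha class was higher throughout, the mu, theta and UGT1A genes were lower, each by less than 2-fold, the pi genes were above 0 with 1 of them past 2-fold, and the omega class, the MGST genes and the sulfotransferases were mixed in direction. Because these ratios shift together with the scaling of the arrays, they were also set against the median of all genes measured on both arrays. All 3 alpha and all 3 pi genes lay above that median, whereas 6 of 7 mu genes, 3 of 3 theta genes and 3 of 3 UGT1A genes lay below it. The first 4 of the scalings named above raised the ratios of all genes by a median of 0.08 to 0.16, and the E1A scaling raised them by 1.04.

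**Figure D2:**
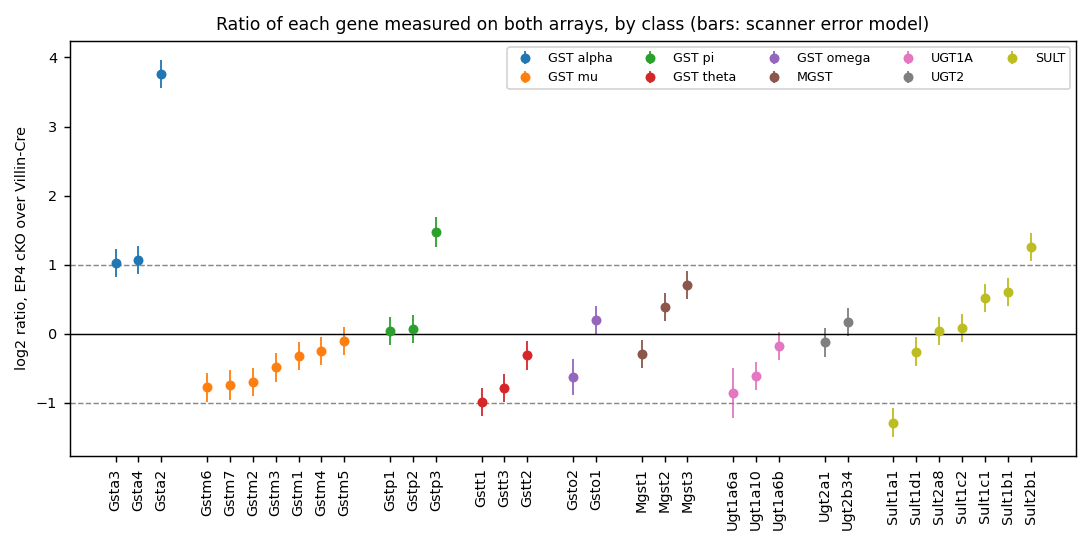
Log2 ratio of EP4 cKO over Villin-Cre for the 33 genes measured on both arrays, grouped by class, with bars for the error by the scanner model (0.20 to 0.36) and dashed lines at 2-fold. The 3 alpha genes lie above the upper line, from 1.03 to 3.76, and the 7 mu genes lie between -0.78 and -0.10.

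The alpha class conjugates electrophiles and reduces lipid hydroperoxides. Gsta2 had a signal of 2892 in Villin-Cre and 39299 in EP4 cKO, which is 13.6-fold higher (log2 ratio 3.76 ± 0.20, scanner error). By the brightest probe of each gene, this was the largest change of any conjugation enzyme here and the only one past 3-fold. Gsta1, its neighbour and close paralog, had no matched probe, and whether the Gsta2 probe also reads transcripts of Gsta1 was not tested. Gsta4, which removes the lipid peroxidation product 4-hydroxynonenal, had 1602 and 3355, a log2 ratio of 1.07 ± 0.21. Gsta3, an alpha enzyme known for the detoxification of aflatoxin epoxide in mice, had 7811 and 15913 by its brighter probe (1.03 ± 0.20) and 4802 and 8655 by the other (0.85 ± 0.20). Both lay close to the 2-fold line, and with the mean of its probes Gsta3 fell short of it (0.94). In the reference assembly Gsta4, Gsta1 and Gsta2 lie near each other on chromosome 9, while Gsta3 lies on chromosome 1, so that the higher ratios were not limited to 1 cluster.

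The pi class held 1 changed gene among 3 that lie side by side on chromosome 19. Gstp3 had signals of 656 and 1824, which is 2.78-fold higher (log2 ratio 1.47 ± 0.21). Gstp1 had 21789 and 22475 (0.04 ± 0.20), and Gstp2 had 199175 and 209919 (0.08 ± 0.20). These differences of Gstp1 and Gstp2 were smaller than the error, and that of Gstp1 changed its sign after normexp with quantile normalization (-0.01).

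The 7 mu genes, an uninterrupted run of coding genes on chromosome 3, were all lower and all within 2-fold, although Gstm5 turned to 0.06 with scaling to the 75th percentile and to 0.03 with a trimmed mean over all spots, and all 7 turned with scaling to the E1A spots. Mu enzymes conjugate epoxides and other electrophiles. Gstm6 went from 7111 to 4154 (log2 ratio -0.78 ± 0.20), with a second probe at -0.74. Gstm7 went from 701 to 419 (-0.74 ± 0.22), and Gstm2 from 58542 to 36153 (-0.70 ± 0.20). The ratio of Gstm7 was smaller after normexp with quantile normalization (-0.43) and after loess (-0.51). Gstm3 had 112580 and 80403 (-0.49 ± 0.20), Gstm1 had 46295 and 36938 (-0.33 ± 0.20, second probe -0.47), Gstm4 had 2862 and 2405 (-0.25 ± 0.20), and Gstm5 had 25251 and 23548 (-0.10 ± 0.20). Mu paralogs are alike in sequence, so binding of one transcript to the probe of another cannot be separated here.

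Theta enzymes act on small halogenated compounds and sulfate esters. Gstt1 had signals of 21049 and 10623, a log2 ratio of -0.99 ± 0.20, just inside the 2-fold line. Gstt3 had 31393 and 18271 (-0.78 ± 0.20), and Gstt2 had 5889 and 4744 (-0.31 ± 0.20). The neighbouring Gstt4 was too dim in both genotypes to be flagged above background. All 3 measured theta genes were lower, and they turned only with scaling to the E1A spots, where Gstt1 was at 0.05.

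The omega class and the membrane-bound MGST proteins lay within 2-fold. Gsto1, which reduces dehydroascorbate and methylated arsenic, had 177644 and 203293 (log2 ratio 0.19 ± 0.20, second probe 0.28). Gsto2, its neighbour, had 335 and 217 (-0.63 ± 0.26), and -0.20 after normexp with quantile normalization. Mgst2 and Mgst3, which reduce lipid hydroperoxides and can form leukotriene C4, were both higher. Mgst3 had 58375 and 95625 (0.71 ± 0.20), and Mgst2 had 78808 and 103377 (0.39 ± 0.20). Mgst1, a protein of the endoplasmic reticulum and mitochondrial outer membrane, had 46913 and 38468 (-0.29 ± 0.20), with a second probe at -0.19.

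Among the glucuronosyltransferases no gene was past 2-fold by its brightest probe, and 7 of 14 had a value. The UGT1A enzymes are read from 1 locus in which alternative first exons join a set of shared last exons, so a probe in the shared part would read several of them. The position of the probes was not used here, and only 3 of 9 UGT1A genes had a matched probe. Ugt1a6b, which glucuronidates planar phenols, had 88885 and 78876 (log2 ratio -0.17 ± 0.20), with a second probe at -0.22. A further, dim probe of the gene went the other way, from 75.9, not well above background, to 385, which is at least 3.07-fold higher, and the mean of the 3 probes was 0.41. Ugt1a10 had 1629 and 1068 (-0.61 ± 0.21). Ugt1a6a had 163 and 90.2 (-0.85 ± 0.36), the least certain ratio of all, and -0.16 after loess. All 3 UGT1A genes were lower by their brightest probe, and all turned with scaling to the E1A spots.

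The UGT2 family differed in what could be seen rather than in its ratios. Ugt2b34 had 55326 and 62454 (log2 ratio 0.17 ± 0.20). Ugt2a1, best known from olfactory tissue, had 1402 and 1287 (-0.12 ± 0.21) and turned to 0.03 with scaling to the 75th percentile and to 0.05 after loess. Both differences were smaller than the error. Ugt2b35 and Ugt2b37 were well above background only on the EP4 cKO array, with signals of 113 and 128, below or close to the floor of the Villin-Cre array, so that no fold above 1.02 can be given. Ugt2a3, Ugt2b1, Ugt2b5, Ugt2b36 and Ugt2b38, and both UGT3A genes, did not pass the flag in either genotype.

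The sulfotransferases held changes in both directions. Sult1a1, the main phenol sulfotransferase, had signals of 75153 and 30876 by its brighter probe (log2 ratio -1.28 ± 0.20) and 67361 and 27998 by the other (-1.27 ± 0.20), so that both were lower, the brighter by 2.43-fold. Sult2b1, which sulfates cholesterol and pregnenolone, had 9709 and 23231, which is 2.39-fold higher (1.26 ± 0.20). With scaling to the E1A spots Sult1a1 was at -0.25 and Sult2b1 at 2.30.

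The other 5 sulfotransferases with a value lay within 2-fold. Sult1b1, an intestinal enzyme that acts on phenols and thyroid hormones, had 52752 and 80449 (log2 ratio 0.61 ± 0.20), with a second probe at 0.62. Sult1c1 had 2364 and 3388 (0.52 ± 0.20), and its neighbour Sult1c2 had 11316 and 12029 (0.09 ± 0.20). Sult1d1, which sulfates catecholamines, had 13080 and 10949 by its brighter probe (-0.26 ± 0.20) and 5780 and 6174 by the other (0.10 ± 0.20), the widest difference among the 10 genes with a pair of probes measured on both arrays. Sult2a8, a bile acid sulfotransferase known from mouse liver, had 1830 and 1882 (0.04 ± 0.21). It was the only one of 8 neighbouring Sult2a genes above background, since Sult2a1 to Sult2a7 did not pass the flag in either genotype. The same held for the estrogen sulfotransferase Sult1e1 and for Sult3a1, Sult3a2, Sult4a1, Sult5a1, Sult6b1 and Sult6b2.

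The stretches before the start sites of the 2 genes with the highest and the 2 with the lowest ratios are shown because they hold, or lack, the short motifs of the factors known to act on this group. They are the 250 bases upstream of the RefSeq start (GRCm38.p6), written 5′ to 3′ on the strand of the gene, with any match to a searched motif in capitals. The motifs reported here, searched on both strands, were TGACNNNGC for the antioxidant response element and GCGTG for the AHR element, and neither contains the other.
Gsta2, chr9:78347146-78347395, minus strand: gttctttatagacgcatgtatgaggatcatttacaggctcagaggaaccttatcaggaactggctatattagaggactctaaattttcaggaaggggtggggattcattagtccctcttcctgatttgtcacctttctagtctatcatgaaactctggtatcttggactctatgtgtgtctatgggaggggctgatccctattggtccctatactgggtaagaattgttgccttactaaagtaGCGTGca
Gstp3, chr19:4059448-4059697, minus strand: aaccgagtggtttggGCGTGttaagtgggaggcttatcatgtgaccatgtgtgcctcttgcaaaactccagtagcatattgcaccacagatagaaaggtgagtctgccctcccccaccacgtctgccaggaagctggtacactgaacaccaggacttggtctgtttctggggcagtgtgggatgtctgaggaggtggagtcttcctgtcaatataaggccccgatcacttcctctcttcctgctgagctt
Sult1a1, chr7:126676419-126676668, minus strand: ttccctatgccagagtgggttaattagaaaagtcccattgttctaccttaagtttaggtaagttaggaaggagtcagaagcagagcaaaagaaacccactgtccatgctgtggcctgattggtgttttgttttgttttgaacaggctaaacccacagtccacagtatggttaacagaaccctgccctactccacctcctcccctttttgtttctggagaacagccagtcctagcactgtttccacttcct
Gstt1, chr10:75797732-75797981, minus strand: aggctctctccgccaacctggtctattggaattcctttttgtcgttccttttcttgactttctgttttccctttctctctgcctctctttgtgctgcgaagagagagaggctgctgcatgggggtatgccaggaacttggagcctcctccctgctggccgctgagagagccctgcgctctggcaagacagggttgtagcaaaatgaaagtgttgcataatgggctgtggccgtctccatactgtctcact

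The AHR core GCGTG stood at position -7 before Gsta2 and at position -235 before Gstp3, and Sult1a1 and Gstt1 held neither motif. The whole windows spanned 300 bases, with 250 before and 50 after the start. The 68 windows of the group belonged to 57 genes, some with several windows, and 49 of these genes had a matched probe. GCGTG was found in 14 of these windows (20.6%), against 32.4% of all 32851 windows. TGACNNNGC was found in 4 (5.88%), those of Gsta3, Gstm5, Gstm7 and Mgst1, against 12.4% of all windows. Neither motif was thus more frequent in this group than in all windows, and the genes with TGACNNNGC held both higher and lower ratios (Gsta3 1.03, Mgst1 -0.29, Gstm5 -0.10 and Gstm7 -0.74). GCGTG was found before 12 of the genes, with higher ratios (Gsta2 3.76, Gstp3 1.47, Sult2b1 1.26, Mgst3 0.71, Sult1b1 0.61), lower ratios (Gstm1 -0.33, Sult1d1 -0.26, Gstm5 -0.10), a ratio near 0 (Gstp1 0.04) or no probe (Gsta1, Ugt1a5, Ugt1a8). A match is only a match of letters, and sites further from the start were not searched.

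Genes that supply the conjugates or export them held changes in both directions, and most lay within 2-fold. Of 14 genes of glutathione synthesis and recycling with a value, 1 was more than 2-fold higher and 1 lower (all genes 4.86% and 7.87%), and Slc7a11 and Ggt1 had bounds that did not reach 2-fold. Chac1, which breaks glutathione down and is known from the stress response of the endoplasmic reticulum, went from 117, not well above background, to 1371, at least 10.9-fold higher. Anpep, an aminopeptidase of the brush border, had 3856 and 1859 (log2 ratio -1.05). The synthesis enzymes Gclc (0.26), Gclm (0.22) and Gss (0.31) and the reductase Gsr (0.36) all lay within 2-fold. Among 7 other glutathione transferases and related membrane proteins none was past 2-fold (Hpgds by a bound only), and Gstk1 (-0.76) and Gstz1 (-0.63) were the lowest.

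In the other lists the counts past 2-fold likewise stand beside 4.86% of all genes higher and 7.87% lower, and nothing particular to a list is read from them. For glucuronidation, Ugdh, which makes UDP-glucuronic acid, had 39966 and 25640 (log2 ratio -0.64), and the phosphoglucomutase gene Pgm2 had 1320 and 3423 (1.37), the only one of 7 genes past 2-fold. For sulfation, none of 10 genes was past 2-fold, and Papss2, a synthase of the sulfate donor, had 58203 and 48062 (-0.28). Of 9 genes of methyl-, acetyl- and acyl-conjugation, Nat2, an arylamine acetyltransferase, was more than 2-fold higher (1.15), and the methyltransferases Hnmt (-1.22) and Inmt (-1.70) were more than 2-fold lower. Of 8 export pumps none was past 2-fold (Abcc5 by a bound only), with Abcc4 (0.72) and Abcc6 (-0.75) at the ends of the range.

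**Figure D3:**
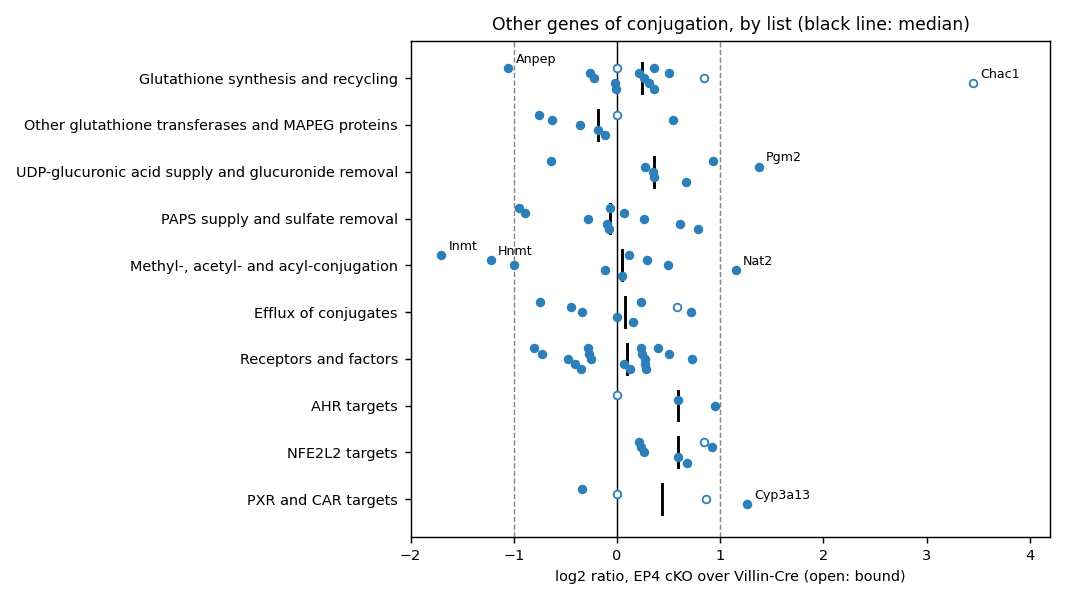
Log2 ratio of EP4 cKO over Villin-Cre for the other genes of conjugation, 1 row per list, with the median as a black line, bounds as open circles and dashed lines at 2-fold. Genes past 2-fold are named, and Chac1 at 3.45 is a bound.

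None of 18 receptors and factors known to control conjugation genes was past 2-fold. Nfe2l2 (log2 ratio 0.07), Keap1 (0.27), Ahr (-0.28), Nr1i2, which encodes PXR (-0.47), Nr1i3, which encodes CAR (0.50), and Hnf4a (0.23) were all measured on both arrays. Outside the conjugation enzymes, all 7 targets of NFE2L2 looked at were higher, and the 6 measured on both arrays lay within 2-fold. Beside these 6, 37% of all genes measured on both arrays were higher. Gclc (0.26), Gclm (0.22) and Txnrd1 (0.24) exceeded the scanner error of 0.20 only slightly. Srxn1 (0.92) and Hmox1 (0.68) had the largest ratios among those measured on both arrays, Nqo1 had 0.59, and Slc7a11, flagged above background in EP4 cKO alone, was at least 1.80-fold higher, which leaves its distance from the 2-fold line unknown. The ratio of Gsta2 (3.76) was above those of the 6 targets measured on both arrays, while those of Gsta3 and Gsta4 (1.03 and 1.07) were close to that of Srxn1. Whether NFE2L2 acted on any of these genes was not tested. Of the AHR targets, Cyp1a1 had 109 in Villin-Cre, not well above background, and 62.2 in EP4 cKO, where it passed the flag. Both signals lay below the Villin-Cre floor of 125, so that no fold above 1 can be given. Cyp1b1 and Ahrr did not pass the flag in either genotype. Tiparp, the AHR target with the largest ratio of the list, had 1085 and 2095 (0.95). Among 4 PXR and CAR targets, Cyp3a13 was past 2-fold with 8794 and 21047 (1.26). Abcb1a was at -0.34, and Cyp2b10 (at least 1.82-fold higher) and Cyp3a11 (no fold above 1) had only bounds.

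Other processing left the genes past 2-fold nearly the same. Gsta2, Gsta4, Gstp3, Sult2b1 and Sult1a1 stayed past 2-fold in the same direction under all 8 other settings of scaling, background, filter and probe choice tried, the E1A scaling aside, and Gsta3 under 7 of 8. Of the 27 genes within 2-fold and measured on both arrays, 4 changed their sign under at least 1 of these settings, namely Gstm5, Gstp1, Ugt1a6b and Ugt2a1.

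**Figure D4:**
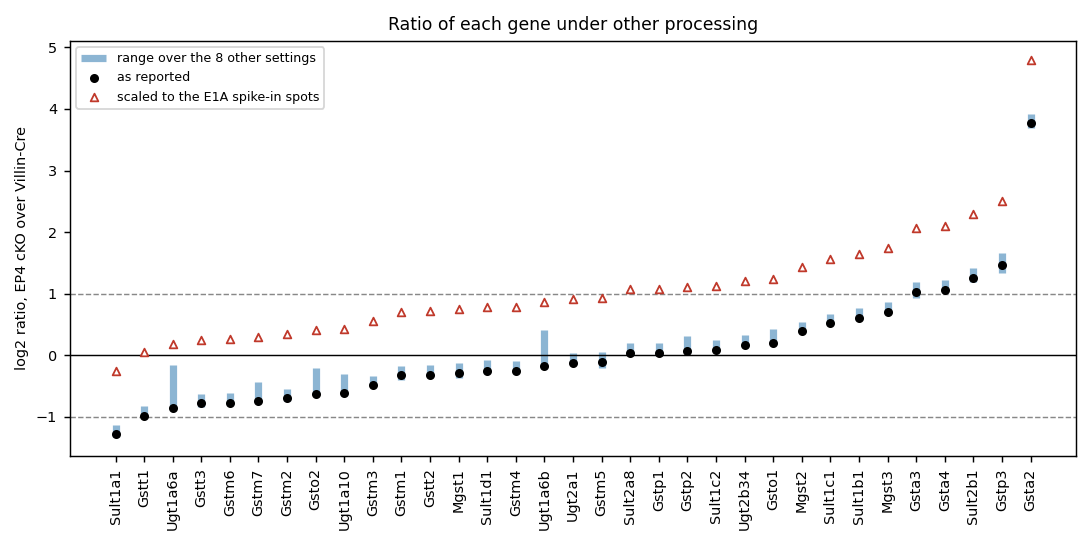
Log2 ratio of the 33 genes measured on both arrays, sorted, with the reported value as a black dot, the range over the 8 other settings as a bar and the value with scaling to the E1A spike-in spots as a red triangle; dashed lines mark 2-fold. Gsta2 keeps a ratio of 3.70 to 3.92 over these settings, and the E1A scaling moves every gene up by 1.04.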

How the data were processed

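RNA of whole colon was measured on 2 arrays, 1 per genotype, mapped to Villin-Cre and EP4 cKO from the labels. The authors deposited scanner output (Feature Extraction 12.0.3.1 per the file headers, 11.5.1.1 per the submitters' processing notes). The intensity used was the processed signal, which the software had background-subtracted and detrended. The deposited values were not scaled between arrays, so the authors' scaling (2% of probes trimmed at each end, trimmed mean of 2500) was repeated, with factors of 3.45 and 2.68. Other values used were the median and background intensity of the spots, the signal error and the flags, as deposited.

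Control spots and outlier spots (147 and 126 gene spots) were left out, and spots of a probe were averaged. The SD over repeated spots had a median of 0.035 on the log2 scale (278 probes). No spot was saturated. Of 56593 probes, 25683 and 29177 were well above background. By unversioned RefSeq accession, 32989 probes (58.3%) matched a gene of GRCm38.p6, and the others were used for scaling only. The array grid refers to an older build, so coordinates are given only for promoters. The number of arrays limits the precision.

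The members, lists and motifs were chosen with earlier results of these data known. Genes named are all members with a value, and genes of the other lists past 2-fold or of a known central role, the latter singled out after their values were seen. The alternatives were the 75th percentile, normexp (offset 50, on the median signal, as no mean signal was used here) with quantile normalization, loess (span 0.3), a trimmed mean over all spots, 2 filters, 2 probe choices and thresholds of 1.5-fold and 3-fold. Once the data had been seen, the E1A scaling and a common floor were tried too. Tested on simulated data, the calculation recovered 100% of 200 probes changed among 25683, with 0 false calls. That result checks the calculation only and is not an error rate for the genes reported here. Normexp ran in limma 3.58.1 (R 4.3.3), loess in statsmodels 0.14.6, and the rest in pandas 2.3.3 and numpy 2.4.6 (Python 3.11.15), with plots by matplotlib 3.10.9. Probe and protein sequences were not used here, and 1 factor of the lists and its motif are not reported here.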

Additional observations from a re-analysis of the deposited data

How the results depend on the processing

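The count of 5 genes more than 2-fold higher was 1 with a threshold of 3-fold and 16 with scaling to the E1A control spots. The count of 1 gene more than 2-fold lower was 9 with a threshold of 1.5-fold (25.7% of the 35, against 18.6% of all genes), 0 with a threshold of 3-fold, 0 with the E1A scaling and 17 with no filter on dim probes. In the last case 16 of the 17 were not well above background on either array, and 31.5% of all genes were then lower by that much. With the E1A scaling 39.1% of all genes were more than 2-fold higher, and the median of the conjugation enzymes was 0.91 in place of -0.10 over the 35 genes with a value, beside 0.87 for all genes. The other 27 values of these counts and of the median stayed within 1.5 times the count or within the scanner error of 0.20. That error is one of single genes and is a lax yardstick for a median. The median of the conjugation enzymes turned its sign with scaling to the 75th percentile (0.03), with loess (0.05) and with a trimmed mean over all spots (0.01). Under no alternative did a gene past 2-fold change its sign. The scaling of the arrays decides the sign of genes near 0, and the floors limit what can be seen of dim genes. No paired analysis was possible because there was 1 array per genotype, and no array could be left out.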
